A study of Homo sapiens with 8 samples.

Results

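The genes around a deleted enhancer were followed along 10 Mb of chromosome 16. The set holds the 48 protein-coding genes whose transcript begins, in the deposited table, between 72.6 and 82.6 Mb of chromosome 16 (GRCh37), within 5 Mb on either side of the place where E2 and SE12313-b lie. The table lists 27945 genes, of which 19475 code for proteins. Genes were chosen by position and type, each with the transcript that had the highest mean, except that 3 symbols were left out by name. Of the 48 genes, 28 lie on the minus strand and 20 on the plus strand.

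RNA was sequenced from 8 libraries of EA.hy926, an established line that arose from the fusion of umbilical vein endothelial cells with A549 lung carcinoma cells. E2 and SE12313-b are enhancers of SE12313, a super-enhancer of endothelial cells. The study deleted SE12313-b as a negative control for E2, and the comparison asks which genes nearby depend on either stretch. There were 2 libraries of control cells (genotype Control), 3 of E2 knock-out lines (ΔE2) and 3 of SE12313-b knock-out lines (ΔSE12313-b). Each knock-out line is 1 clone, obtained after Cas9 protein with a pair of guide RNAs had been transfected. The study describes control cells that received guide RNAs for its proliferation assay, without stating that the sequenced control RNA was theirs. Nothing in the labels tells whether the control libraries came from separate cultures, so the spread between them may be technical. The p-values rest on a spread pooled over the libraries of all groups, that between clones of the same deletion included.

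Super-enhancers are clusters of enhancers that are occupied by many transcription factors and lie near genes of cell identity. An enhancer meets its target promoter by looping of the chromatin, most often within the same topological domain, and the target is not always the closest gene. ADAMTS18 encodes a secreted metalloproteinase of the extracellular matrix, NUDT7 a peroxisomal hydrolase of coenzyme A, VAT1L a relative of the synaptic vesicle protein VAT1, and WWOX an oxidoreductase with WW domains whose gene spans a common fragile site.

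The guides are shown because they fix the place of each deletion. Each matched GRCh37 perfectly at 1 site, and they are written 5′ to 3′ with the adjacent motif (PAM) that Cas9 needs in capitals.
SE12313-b guide, chr16:77602390-77602409 (minus strand): aaagaagcttccggttgaatTGG
SE12313-b guide, chr16:77604893-77604912 (plus strand): ctattatttctcccgacgtaGGG
E2 guide, chr16:77627877-77627896 (plus strand): gagttcagactcaactcttgAGG
E2 guide, chr16:77630393-77630412 (minus strand): tgtaccacatcagaaggcttGGG
By the guides' sites on GRCh37, cuts 3 bases inside the PAM would remove 2517 bp of SE12313-b (chr16:77602393-77604909), where no gene is annotated, and 2502 bp of E2 (chr16:77627894-77630395), which lie in an intron of LINC02131, a long non-coding RNA gene. No transcript of the deposited table overlaps either stretch, so the values below check neither the deletions nor their length in the clones.

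The promoters of ADAMTS18, NUDT7 and VAT1L are shown because they are the closest gene of the set on the centromere side and its closest pair on the telomere side. Each holds 250 bases before and 50 after the transcription start (RefSeq, located here on GRCh37), 5′ to 3′ along the gene, with CG dinucleotides in capitals.
ADAMTS18, chr16:77468882-77469181 (minus strand): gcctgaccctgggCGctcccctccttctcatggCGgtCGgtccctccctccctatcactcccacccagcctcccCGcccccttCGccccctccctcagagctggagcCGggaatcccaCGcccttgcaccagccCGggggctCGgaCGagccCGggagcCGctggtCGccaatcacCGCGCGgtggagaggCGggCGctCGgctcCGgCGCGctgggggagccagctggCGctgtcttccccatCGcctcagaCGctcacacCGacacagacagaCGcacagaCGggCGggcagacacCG
NUDT7, chr16:77756161-77756460 (plus strand): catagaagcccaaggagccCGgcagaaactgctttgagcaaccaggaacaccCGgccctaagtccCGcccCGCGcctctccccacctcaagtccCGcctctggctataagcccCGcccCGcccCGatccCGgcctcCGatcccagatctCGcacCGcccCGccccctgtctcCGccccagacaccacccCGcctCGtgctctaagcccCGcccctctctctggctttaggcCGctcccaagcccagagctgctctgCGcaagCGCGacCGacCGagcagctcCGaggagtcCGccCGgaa
VAT1L, chr16:77822211-77822510 (plus strand): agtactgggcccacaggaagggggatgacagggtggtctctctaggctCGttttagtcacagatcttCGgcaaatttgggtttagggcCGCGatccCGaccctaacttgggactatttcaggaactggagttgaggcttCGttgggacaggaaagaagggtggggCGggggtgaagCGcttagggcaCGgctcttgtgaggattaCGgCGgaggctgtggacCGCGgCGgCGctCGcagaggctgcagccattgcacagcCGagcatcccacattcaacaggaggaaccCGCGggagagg
The ADAMTS18 promoter has a G+C content of 73.0% with 30 CG dinucleotides, that of NUDT7 69.3% with 27 and that of VAT1L 60.0% with 19. Of the 48 genes, 36 had an entry among the RefSeq promoters (GRCh38.p14), with a median G+C content of 62.8% and a median of 24 CG dinucleotides, beside 58.7% and 14 over 35116 promoters of all genes. The 36 are protein-coding genes with 1 promoter each. The 35116 were limited neither to protein-coding genes nor to 1 promoter per gene, so the sets compared are unlike. The AP-1 motif TGANTCA, searched on both strands, was present in 2 of the 36 (5.56%), those of BCAR1 and WDR59, beside 7.71% of all promoters. The core of the hypoxia response element (ACGTG or GCGTG, both strands) was present in 21 of the 36 (58.3%), beside 48.4% of all promoters, with 1 copy at ADAMTS18 and no match at NUDT7 or VAT1L.

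The libraries held between 12067559 and 19101150 reads, recovered from the deposited FPKM (reads scaled to transcript length and library size). Between 7801359 and 13371431 reads per library fell on the transcripts kept to represent the genes. Control libraries differed by little more than counting noise (chi-square per degree of freedom of 1.19), and clones of the same deletion by more (3.98 to 20.7 in ΔE2, 8.34 to 22.8 in ΔSE12313-b). Of 10 endothelial markers 8 were above the minimum FPKM and CLDN5 was at the floor of 3 reads, and their summed FPKM was 434 in both controls, 459 to 649 in ΔE2 and 480 to 667 in ΔSE12313-b. Of 5 epithelial markers 2 were above the minimum and CDH1 was at the floor. They summed to 232 to 239 in the controls, 613 to 752 in ΔE2 and 541 to 669 in ΔSE12313-b. The summed levels of the endothelial and of the epithelial list thus lay higher in all 6 clones than in the controls. The endothelial markers did not all rise. In each deletion 2 were higher and 1 lower at an adjusted p under 0.05 and at least 2-fold (limma, Benjamini-Hochberg). By the same rule 2 epithelial markers were higher and 0 lower. Over all genes tested the shares were 11.2% higher and 8.36% lower in ΔE2, and 14.7% and 7.83% in ΔSE12313-b. The part of these marker shifts in the results below was not tested. Mesenchymal and leukocyte markers summed to at most 0.299 in each library. Over the 13789 genes tested (those that reached an FPKM of 0.5 in 2 or more libraries), log2 fold changes had a median of 0.14 for ΔE2 and of 0.27 for ΔSE12313-b against the controls, and of -0.11 for ΔE2 against ΔSE12313-b. Changes are on the log2(FPKM + 0.1) scale, those named as relative have this median taken off, and both deletions are set against the same 2 control libraries.

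Of the 48 genes, 31 passed the minimum and were tested. Their mean FPKM over all libraries ranged from 0.302 to 54.4, with a median of 10.7. ADAMTS18 passed through the 2 control libraries alone and PKD1L2 through 2 libraries of ΔSE12313-b alone, so their place among the tested genes already depends on the group where they are high. C16orf47, CPHXL, MAF and SDR42E1 had no read in any library, 8 others had at most 3 reads in every library and 5 had more.

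ADAMTS18 was downregulated in both deletions. Its transcription start lies 159 kb from the deleted stretch of E2 and 133 kb from that of SE12313-b, on the centromere side. The FPKM of ADAMTS18 was 0.682 and 0.859 in the controls, 0.133, 0.149 and 0.087 after deletion of E2, and 0.232, 0.149 and 0.128 after deletion of SE12313-b. Every clone lay below both controls, and the clones of the 2 deletions overlapped each other. These values rest on 51 and 61 reads in the controls, 15, 15 and 7 in ΔE2, and 22, 13 and 12 in ΔSE12313-b.

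The mean FPKM of ADAMTS18 fell from 0.77 ± 0.125 (SD, n = 2) to 0.123 ± 0.0322 (n = 3) in ΔE2, a ratio of means 6.26-fold lower, and to 0.17 ± 0.055 (n = 3) in ΔSE12313-b, 4.54-fold lower. In pooled reads this was 16.4% of the control level in ΔE2 (95% exact interval 11.0 to 24.0, counting error only) and 22.2% in ΔSE12313-b (15.5 to 31.5). The log2 fold change of ADAMTS18 was -1.97 ± 0.41 (SE) in ΔE2, -2.11 relative to all genes, with a Benjamini-Hochberg (BH) adjusted p from limma of 0.0045, and -1.70 ± 0.41 in ΔSE12313-b, -1.97 relative to all genes, with an adjusted p (limma, BH) of 0.0078. Without the minimum FPKM (any gene with reads in 2 or more libraries), a test that ADAMTS18 enters whatever its level in the controls, the adjusted p was 0.00065 and 0.001 (limma, BH). The log2 fold changes in that fit were again -1.97 and -1.70, so the lower adjusted p reflects no larger change. The direct difference between the deletions was -0.27 (95% interval -1.11 to 0.58, adjusted p = 0.63 by limma with BH), an interval that holds both a 2-fold lower level in ΔE2 and none. In bulk RNA, fewer cells that express a gene and less RNA per cell cannot be told apart. Leaving out control replicate 1, with the same genes kept in the test, gave -2.12 in ΔE2 and -1.85 in ΔSE12313-b, and leaving out control replicate 2 gave -1.82 and -1.56, with adjusted p (limma, BH) between 0.02 and 0.049 in these 4 fits. The size of the change depended on the scale. With a pseudocount of 1, which weighs down low values, it was -0.66 and -0.60 and thus under 2-fold, with a pseudocount of 0.01 it was -2.57 and -2.15, and by voom on recovered reads -2.76 and -2.46.

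**Figure D1:**
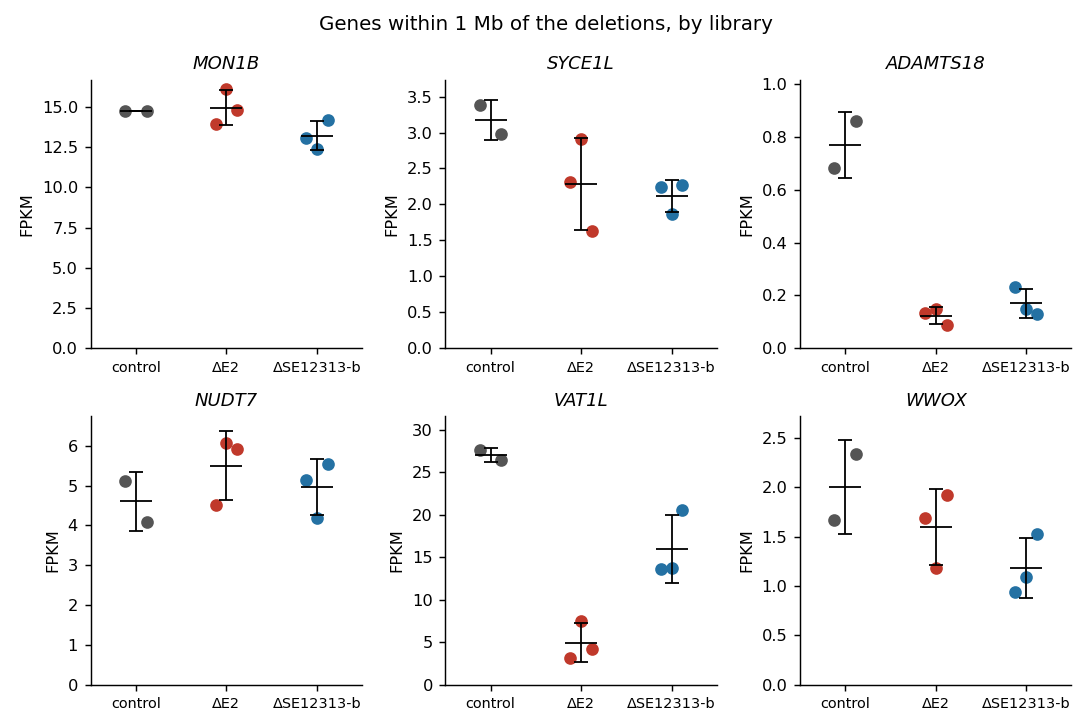
FPKM (linear axes from 0) of the 6 tested genes within 1 Mb of the middle of the window in each of the 8 libraries. Points are libraries, with the mean and SD of each group (control n = 2, ΔE2 n = 3, ΔSE12313-b n = 3). ADAMTS18 lies below both controls in all 6 clones, VAT1L lies lowest in ΔE2 with ΔSE12313-b between, and the groups of NUDT7 overlap.

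VAT1L was downregulated in ΔE2 and differed between the deletions. It starts on the telomere side, 192 kb from E2 and 218 kb from SE12313-b. Its FPKM was 27.5 and 26.4 in the controls, 3.17, 7.51 and 4.16 in ΔE2, and 13.7, 13.7 and 20.5 in ΔSE12313-b. The 3 groups did not overlap, with ΔE2 lowest and ΔSE12313-b in between. The mean FPKM was 27.0 ± 0.799 (n = 2) in the control and 4.95 ± 2.27 (n = 3) in ΔE2, 5.46-fold lower, with a log2 fold change of -2.52 ± 0.33 (adjusted p = 0.00048, limma with BH). In ΔSE12313-b the mean was 15.96 ± 3.96 (n = 3), and the log2 fold change of -0.78 (95% interval -1.55 to -0.01) had an adjusted p of 0.075 (limma, BH). That value depended on the scaling, since VAT1L had -1.07 with an adjusted p (limma, BH) of 0.026 when each library was centred, and -1.07 with 0.0073 by voom on recovered reads. It also depended on the groups fitted. With only ΔSE12313-b and the controls in the fit, the change was again -0.78, with an adjusted p (limma, BH) of 0.018. The direct difference, -1.74 (95% interval -2.42 to -1.05, adjusted p = 0.0053, limma with BH), kept its direction and its call in every fit that left out 1 library.

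NUDT7, the gene of the set that starts closest to E2, did not pass the test in either deletion. It starts 126 kb from E2 and 151 kb from SE12313-b, between the deletions and VAT1L. The FPKM of NUDT7 was 5.12 and 4.08 in the controls, 4.5, 6.06 and 5.93 in ΔE2, and 5.15, 4.18 and 5.54 in ΔSE12313-b, with overlap between all groups. Its log2 fold change was 0.25 in ΔE2 (95% interval -0.17 to 0.67, adjusted p = 0.28, limma with BH) and 0.10 in ΔSE12313-b (-0.31 to 0.52, adjusted p = 0.64), where the sign turned to -0.18 with centred libraries. A fall of 2-fold lies outside both intervals. Exons of another gene on the opposite strand cover 32.2% of the exon bases of NUDT7, and how the deposited values treat strands is not given in the sources used here.

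WWOX starts 533 kb from the middle of the window on the telomere side. Its FPKM was 1.67 and 2.34 in the controls, 1.69, 1.18 and 1.93 in ΔE2, and 0.941, 1.09 and 1.52 in ΔSE12313-b. The ΔE2 clones overlapped the controls and the ΔSE12313-b clones lay below them. The log2 fold change was -0.32 in ΔE2 (95% interval -0.96 to 0.33, adjusted p = 0.37, limma with BH) and -0.72 in ΔSE12313-b (-1.36 to -0.08, adjusted p = 0.054), and the latter passed both thresholds at -1.01 with centred libraries, at -1.01 with the longest transcript and at -1.04 by voom.

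Farther out on the centromere side, MON1B, part of a complex that activates Rab7 on late endosomes, had FPKM of 14.8 and 14.8 in the controls, 14.0, 16.1 and 14.8 in ΔE2, and 13.1, 12.4 and 14.2 in ΔSE12313-b. Its log2 fold change was 0.02 in ΔE2 (adjusted p = 0.89, limma with BH, and -0.14 with centred libraries) and -0.16 in ΔSE12313-b (adjusted p = 0.17). The latter depended on the scaling. MON1B in ΔSE12313-b had -0.45 with centred libraries and -0.45 by voom (adjusted p of 0.0033 and 0.0033, limma with BH). SYCE1L, named for its likeness to a protein of the synaptonemal complex, had 3.38 and 2.98 in the controls, 2.32, 2.91 and 1.63 in ΔE2, and 2.24, 1.87 and 2.26 in ΔSE12313-b. Both sets of clones lay below the controls, with log2 fold changes of -0.49 (adjusted p = 0.1, limma with BH) and -0.56 (adjusted p = 0.064). With centred libraries SYCE1L had -0.65 in ΔE2 and -0.85 in ΔSE12313-b (adjusted p of 0.047 and 0.016, limma with BH). By voom it had -0.86 in ΔSE12313-b (adjusted p = 0.032, limma with BH), and 0.021 was reached there with only the compared groups fitted. MON1B and SYCE1L share 105 bases of exon on the same strand. CLEC3A, which encodes a lectin of cartilage and starts 463 kb away, had 1 read in all libraries together and was not tested.

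Against its neighbours, ADAMTS18 fell further than their mean. The log2(FPKM + 0.1) of ADAMTS18 minus the mean of the other 5 tested genes within 1 Mb was -3.09 and -2.78 in the controls, -4.07, -4.31 and -4.5 in ΔE2, and -3.83, -4.16 and -4.66 in ΔSE12313-b. All clones lay below the controls, and the group means were lower by 1.36 and 1.28 on the log2 scale, given as a description without a test. The neighbours include VAT1L, which itself lowered their mean in ΔE2. On the log2(FPKM + 0.1) scale ADAMTS18 had the second lowest change of the 31 tested genes in ΔE2, after VAT1L (an order that the ratios of means, 6.26-fold and 5.46-fold lower, turn), and the lowest in ΔSE12313-b, where VAT1L stood in place 5. The next lowest was NPIPB15 in ΔE2 (-1.12) and TMEM231 after NPIPB15 in ΔSE12313-b (-0.96). CNTNAP4, described below, was under the minimum FPKM and thus outside this order. In the fit without the minimum CNTNAP4 had -1.34 in ΔE2 and -2.45 in ΔSE12313-b, the latter lower than the -1.70 of ADAMTS18.

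**Figure D2:**
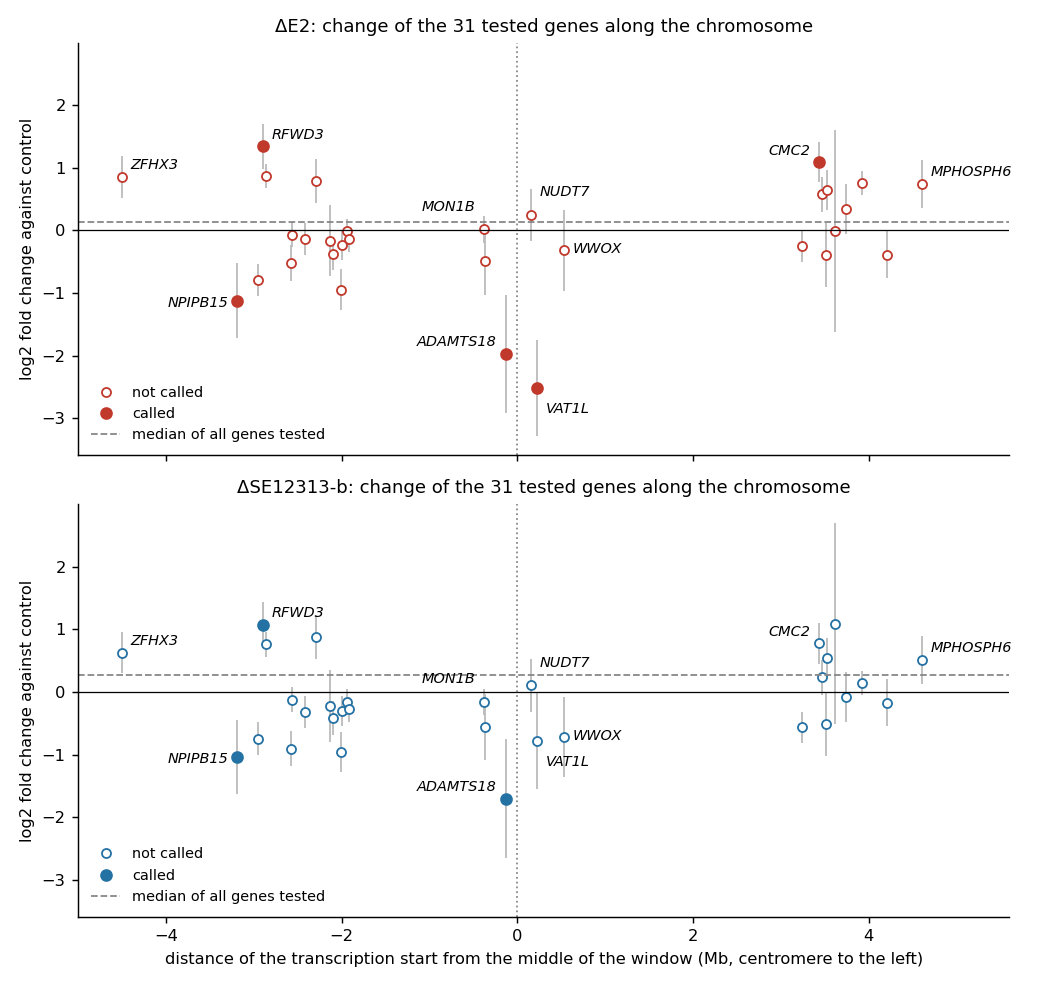
Log2 fold change against control (log2(FPKM + 0.1) scale, y axis) of the 31 tested genes by distance of the transcription start from the middle of the window (x axis, Mb), in ΔE2 (top) and ΔSE12313-b (bottom). Filled points passed both thresholds, bars are 95% intervals from limma, and the dashed line is the median of all genes tested (0.14 and 0.27). Among the genes shown, ADAMTS18 and VAT1L stand below the others in ΔE2, and ADAMTS18 in ΔSE12313-b. CNTNAP4, under the minimum FPKM, is not shown.

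Along the window, an adjusted p under 0.05 together with a change of at least 2-fold (called) was reached by 5 of the 31 tested genes in ΔE2, 2 higher and 3 lower, while 19.6% of all genes tested were called in that comparison (11.2% higher and 8.36% lower). In ΔSE12313-b 3 were called, 1 higher and 2 lower, beside 22.6% of all genes (14.7% higher and 7.83% lower). By the adjusted p alone, 9 were higher and 7 lower in ΔE2, beside 34.7% and 19.4% of all genes, and 7 were higher and 10 lower in ΔSE12313-b, beside 43.0% and 16.4%. The clones lay above both controls in 10 genes and below in 13 in ΔE2 (44.8% and 28.7% of all genes), and above in 9 and below in 17 in ΔSE12313-b (51.5% and 23.8%).

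The 31 genes had median log2 fold changes of -0.13 (ΔE2) and -0.17 (ΔSE12313-b), which are -0.28 and -0.44 relative to all genes. The other 218 tested protein-coding genes of the long arm had medians of 0.15 and 0.06, 0.01 and -0.21 relative to all genes, and the 312 of the short arm -0.26 and 0.35. The symbols left out of the set by name were not removed from the long-arm genes. Of the 31 genes, 20 lay below the median of all genes in ΔE2 and 23 in ΔSE12313-b. In single clones the median over the 31 genes was -0.14, -0.03 and -0.05 in ΔE2 and -0.25, -0.26 and -0.18 in ΔSE12313-b, each below the median of all genes in that clone (by 0.18 to 0.26 in ΔE2 and 0.46 to 0.53 in ΔSE12313-b). The spread between the clones of a group over these genes, a median SD of 0.16 in ΔE2 and 0.15 in ΔSE12313-b on the log2 scale, was close to that over all genes (0.15 and 0.15).

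**Figure D3:**
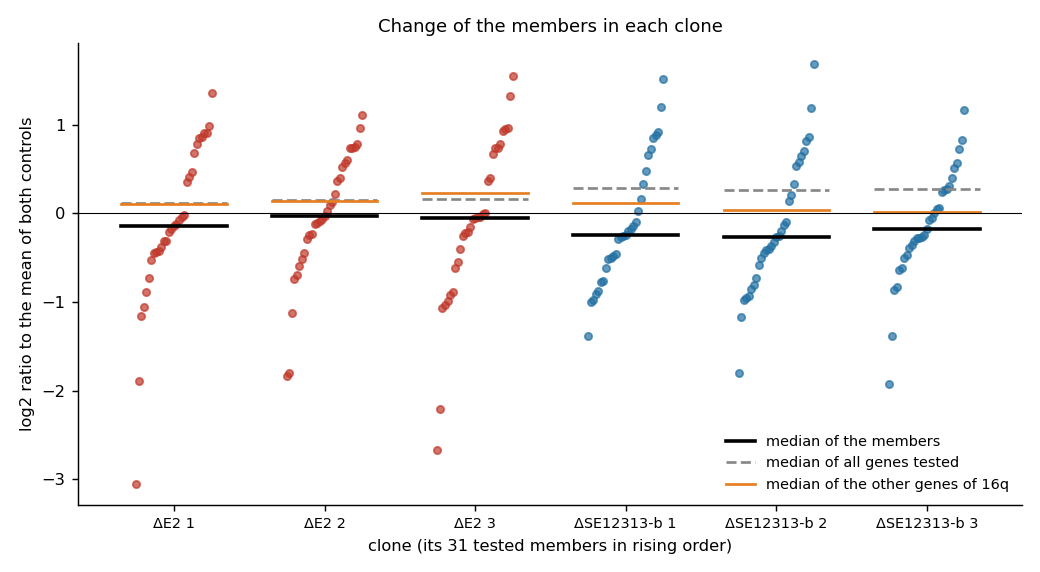
Log2 ratio of each of the 31 tested genes to the mean of both controls (y axis) in each clone (x axis), sorted within the clone. Black lines are medians of the 31 genes, dashed grey lines of all genes tested and orange lines of the other genes of 16q; the black line lies below the dashed line in all 6 clones.

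By distance, the 6 tested genes within 1 Mb had a median of -0.41 in ΔE2 and -0.64 in ΔSE12313-b, and the 25 farther away -0.07 and -0.16. Without ADAMTS18, which passed the minimum through the control libraries alone, the other 5 within 1 Mb had -0.32 and -0.56. On the centromere side the medians were -0.49 and -0.56 within 1 Mb (3 genes), -0.15 and -0.29 from 1 to 2.5 Mb (8 genes) and -0.07 and -0.13 beyond (7 genes). On the telomere side they were -0.32 and -0.72 within 1 Mb (3 genes) and 0.46 and 0.19 beyond 2.5 Mb (10 genes), and from 1 to 2.5 Mb the window holds MAF alone, without a read. The transcription starts of WWOX and MAF lie 1501 kb apart, and no other gene of the set starts between them. Across the 31 genes the distance from the middle of the window and the change had a Spearman rho of 0.42 in ΔE2 and 0.46 in ΔSE12313-b, and of 0.30 and 0.37 without ADAMTS18 and VAT1L. These are descriptions across genes that share the same libraries and the same controls. Of 30 adjacent pairs, 16 lay on the same side of the median of all genes in ΔE2 and 20 in ΔSE12313-b.

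Between the deletions, VAT1L was the 1 gene of the 31 called, beside 4.23% of all genes tested, and by the adjusted p alone 3 were higher in ΔE2 and 1 lower, beside 6.69% and 19.3% of all genes. The clones did not overlap in 7 genes that were higher and 1 that was lower in ΔE2, beside 11.0% and 29.8% of all genes. CMIP, WDR59 and CDYL2, the other genes that passed the adjusted p between the deletions, were singled out after their values had been seen. CMIP, an adaptor of T cell signalling with a start 3.93 Mb to the telomere side, had FPKM of 15.4 and 15.4 in the controls, 26.5, 25.9 and 25.8 in ΔE2, and 15.7, 17.0 and 18.5 in ΔSE12313-b. The ΔE2 clones stood above all other libraries, with a log2 fold change of 0.75 (adjusted p = 0.00017, limma with BH). In ΔSE12313-b the change was 0.14 (adjusted p = 0.17, limma with BH, and -0.15 with centred libraries), and the direct difference was 0.61 (95% interval 0.44 to 0.78, adjusted p = 0.0014).

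WDR59, a subunit of the GATOR2 complex of amino acid sensing, had FPKM of 15.1 and 15.4 in the controls, 9.16, 12.5 and 10.4 in ΔE2, and 8.05, 7.93 and 8.35 in ΔSE12313-b. It was lower in both (-0.52 with an adjusted p of 0.0084 and -0.90 with 0.00046, limma with BH), and the clones of ΔE2 lay between. CDYL2, a chromodomain protein, had 12.9 and 13.3 in the controls, 9.69, 12.2 and 11.2 in ΔE2, and 8.48, 8.74 and 9.22 in ΔSE12313-b, with log2 fold changes of -0.25 (adjusted p = 0.075, limma with BH) and -0.57 (adjusted p = 0.0022). The direct differences of WDR59 (0.38, adjusted p = 0.037) and CDYL2 (0.31, adjusted p = 0.044, both limma with BH) were not past the threshold when only the 2 deletions were fitted (0.063 and 0.073).

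**Figure D4:**
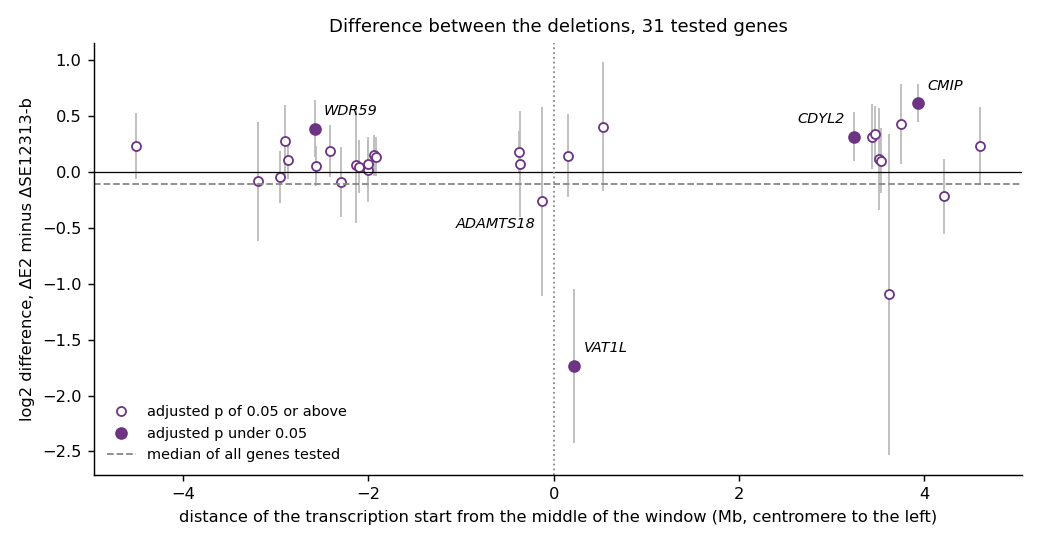
Log2 difference between the deletions (ΔE2 minus ΔSE12313-b, y axis) of the 31 tested genes by distance from the middle of the window (x axis, Mb), with 95% intervals from limma. Filled points had an adjusted p under 0.05 (VAT1L -1.74, CMIP 0.61, WDR59 0.38 and CDYL2 0.31); ADAMTS18 stands at -0.27 with an interval across 0.

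The other called genes lie about 3 Mb away. RFWD3, a ubiquitin ligase of the response to DNA damage on the centromere side, was upregulated in both deletions, with FPKM of 10.3 and 9.85 in the controls, 26.0, 21.9 and 29.8 in ΔE2, and 23.3, 23.1 and 17.9 in ΔSE12313-b. All clones lay above the controls. Its log2 fold change was 1.34 in ΔE2 (adjusted p = 0.00026, limma with BH) and 1.07 in ΔSE12313-b (adjusted p = 0.00065), the latter 0.78 and under 2-fold with centred libraries.

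CMC2, a protein of cytochrome c oxidase assembly 3.44 Mb to the telomere side, had FPKM of 16.3 and 15.96 in the controls, 32.0, 31.6 and 40.6 in ΔE2, and 30.5, 29.3 and 23.9 in ΔSE12313-b. All clones stood above the controls, with log2 fold changes of 1.09 (adjusted p = 0.00043, limma with BH) and 0.78 (adjusted p = 0.0019). Its call in ΔE2 was close to the 2-fold threshold, at 0.97 without ΔE2 replicate 3 and at 0.93 with centred libraries.

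NPIPB15 belongs to a family of near-identical copies on chromosome 16, so that its reads are uncertain. It had FPKM of 1.14 and 1.32 in the controls, 0.494, 0.508 and 0.533 in ΔE2, and 0.676, 0.587 and 0.411 in ΔSE12313-b, which rest on 9 to 22 reads per library. The clones lay below the controls, with log2 fold changes of -1.12 (adjusted p = 0.0073, limma with BH) and -1.04 (adjusted p = 0.0091). These calls were lost when control replicate 2 was left out (adjusted p of 0.083 and 0.096, limma with BH), and in ΔSE12313-b also without control replicate 1 (0.053) and, at -0.86, without ΔSE12313-b replicate 3.

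The 3 genes with the highest mean FPKM were BCAR1, GABARAPL2 and GLG1. BCAR1, the adaptor p130Cas of focal adhesions, had FPKM of 35.4 and 32.8 in the controls, 61.4, 56.8 and 58.4 in ΔE2, and 63.0, 51.0 and 76.5 in ΔSE12313-b, and rose by 0.79 (adjusted p = 0.003, limma with BH) and 0.88 (adjusted p = 0.0015) on the log2 scale. GLG1, a Golgi protein that binds fibroblast growth factors and E-selectin, had 44.9 and 45.3 in the controls, 24.4, 29.8 and 24.3 in ΔE2, and 26.5, 24.9 and 29.4 in ΔSE12313-b, and fell by 0.79 (adjusted p = 0.00067, limma with BH) and by 0.74 (adjusted p = 0.00074) on the log2 scale. BCAR1 lay above the controls in every clone and GLG1 below them. GABARAPL2, an ATG8 protein of autophagosomes, had 39.9 and 37.1 in the controls, 29.4 to 36.9 in ΔE2 and 29.8 to 32.1 in ΔSE12313-b, with changes of -0.23 (adjusted p = 0.086, limma with BH) and -0.30 (adjusted p = 0.033, and 0.087 with the replicate block).

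By role, 4 genes of trafficking and autophagy (GABARAPL2, GLG1, MON1B and TMEM170A) had medians of -0.30 in ΔE2 and -0.36 in ΔSE12313-b, and of these 2 were lower in ΔE2 and 3 in ΔSE12313-b by the adjusted p, beside 19.4% and 16.4% of all genes tested. Of 5 genes of signalling and adaptors, 3 were higher and 1 lower in ΔE2, and 2 were higher and 1 lower in ΔSE12313-b, beside 34.7% higher and 19.4% lower of all genes in ΔE2 and 43.0% and 16.4% in ΔSE12313-b. The same shares apply to the lists that follow. The adaptors included MLKL, the effector of necroptosis, whose FPKM went from 9.16 to 9.60 in the controls to 16.2 to 18.3 in ΔE2 and 15.3 to 17.0 in ΔSE12313-b, a log2 rise of 0.87 and 0.76 (adjusted p of 0.00011 and 0.00016, limma with BH). Of 6 genes of RNA, chromosome and mitochondrial upkeep, 2 were higher in ΔE2, and 2 were higher and 1 lower in ΔSE12313-b.

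Of 4 tested genes of transcription and chromatin, 2 were higher in ΔE2 (ZFHX3 and ATMIN), and in ΔSE12313-b 1 was higher and 2 were lower. Among 3 ubiquitin ligase components RFWD3 alone passed, and among 3 tested metabolic enzymes GCSH, of the glycine cleavage system, was higher in both (0.64 and 0.54, adjusted p of 0.0057 and 0.011 by limma with BH, the latter 0.16 with centred libraries). TMEM231, a protein of the ciliary transition zone, had FPKM of 12.6 and 11.8 in the controls, 5.79 to 7.28 in ΔE2 and 5.36 to 6.80 in ΔSE12313-b, with log2 fold changes of -0.94 and -0.96 (adjusted p of 0.00088 and 0.00066, limma with BH). Of 9 extracellular and membrane genes, 3 were tested, of which ADAMTS18 and VAT1L were lower in ΔE2 and ADAMTS18 in ΔSE12313-b, a count from which nothing is read because ADAMTS18 and PKD1L2 passed the minimum through 1 group each. MLKL, GCSH, TMEM231 and PKD1L2 were singled out after their values had been seen. PKD1L2, a polycystin relative, had the widest spread within each group (SD of 0.69, 0.85 and 0.89 on the log2 scale), with log2 fold changes of -0.0071 in ΔE2, where the sign turned under the replicate block, and 1.09 in ΔSE12313-b (adjusted p of 0.99 and 0.21, limma with BH).

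At the borders of the window, the outermost genes inside were ZFHX3, a homeobox transcription factor (2.06 ± 0.0339 FPKM in control cells, 3.81 ± 0.277 without E2 and 3.26 ± 0.471 without SE12313-b), and MPHOSPH6, a cofactor of the RNA exosome (10.6 ± 0.402, 18.1 ± 3.88 and 15.1 ± 0.297). The first genes outside, PMFBP1 and CDH13, had mean FPKM of at most 0.121 in each group and were not tested.

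CNTNAP4, a neurexin relative of neurons that starts 1.26 Mb to the centromere side, stayed under the minimum and was singled out after its values had been seen. It had 32 and 32 reads in the controls, 8, 12 and 13 in ΔE2, and 0 in each ΔSE12313-b clone, so that both sets of clones lay below the controls. In pooled reads ΔE2 had 25.6% of the control level (95% exact interval 16.3 to 39.6, counting error only), and ΔSE12313-b was at least 13.4-fold lower, computed with 3 reads per library. Without the minimum, limma with BH gave adjusted p of 0.0017 for ΔE2, 8.1e-05 for ΔSE12313-b and 0.0072 between the deletions. Exons of a long non-coding RNA on the same strand cover 51.3% of the exon bases of CNTNAP4, so the reads of both cannot be told apart in part of the gene.

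For comparison with ADAMTS18, the ADAMTS family was read in the same fits. Of 19 genes 7 were tested, and 2 were called higher and 2 lower in ΔE2, ADAMTS18 included, and 2 higher and 3 lower in ΔSE12313-b, beside 11.2% higher and 8.36% lower of all genes in ΔE2 and 14.7% and 7.83% in ΔSE12313-b. ADAMTS7, ADAMTS9 and ADAMTS16 were singled out after their values had been seen. ADAMTS7, which degrades cartilage oligomeric matrix protein and lies on chromosome 15, had a mean FPKM of 25.3 ± 0.692 (n = 2) in the control, 4.89 ± 2.26 (n = 3) without E2 and 6.13 ± 3.99 (n = 3) without SE12313-b, with log2 fold changes of -2.44 and -2.20. ADAMTS9 (1.45 and 1.40) and ADAMTS16 (1.26 and 1.18) were called higher in both deletions.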

How the data were processed

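RNA depleted of ribosomal RNA was made into directional libraries and sequenced (single-end) in 2 control, 3 ΔE2 and 3 ΔSE12313-b samples. Per the submitters' processing notes, reads were trimmed with Trim Galore 0.4.4 and mapped to GRCh37 with STAR 2.5.4b. The authors deposited FPKM for 65572 RefSeq transcripts, which were used as they are. The counting tool, RefSeq release and handling of strands behind the deposited FPKM are not given in the sources used here. For their own calls the authors used counts from featureCounts and edgeR, which were not used here. Transcripts without a gene name (42, at most 0.0224% of the FPKM sum and 0 in the window) were left out.

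The 48 genes, the lists of roles and markers and the alternatives were chosen with earlier results of these data known. Each gene was represented by its transcript with the highest mean. Those that reached an FPKM of 0.5 in 2 or more libraries entered a limma model (version 3.58.1, R 4.3.3) of log2(FPKM + 0.1) with 3 groups (trend, two-sided), and p-values were adjusted by Benjamini-Hochberg over all 13789 genes. A gene was called at an adjusted p below 0.05 if it changed 2-fold or more. FPKM times length fell on whole multiples of 1 step (99.997% or more of values, within 0.1 read), which gave the reads of each library, from 12067559 to 19101150. Reads were used for depth, bounds (floor of 3 reads per library, counting error only), voom and exact binomial intervals. On simulated data 194 of 198 genes changed 4-fold were recovered among 13440 (ΔE2 against control), with 13 unchanged genes called. In the comparison without any change (ΔSE12313-b against control), 6 genes were called. Only genes above a minimum number of reads were changed, and all genes and groups had the same dispersion. The recovery of genes with few reads was thus not tested.

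Genes named in the text were those within 1 Mb, those called, the outermost inside and outside the window and the 3 with the highest mean; every other gene described with values, in the closing section too, was singled out after its values had been seen, and the values of 1 tested gene are not reported here. Samples with the same replicate number were not paired by the labels, and the deviations of same-numbered ΔE2 and ΔSE12313-b clones correlated at 0.11, -0.08 and -0.07. Alternatives were pseudocounts of 0.01 and 1, all genes above 0 in at least 2 libraries, a mean FPKM of at least 1, libraries centred on their median, a block for the replicate number, each library left out, limma without the trend, fits of the compared groups alone, the longest transcript, voom on recovered reads with TMM factors, a 1.5-fold threshold and a window of 2.5 Mb. The fits without a control library but with the same genes tested were added after the data had been seen. Exons, promoters and guides were placed with GENCODE, RefSeq and GRCh37.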

Additional observations from a re-analysis of the deposited data

Results flagged for a closer look

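Among the 31 tested genes, 4 differed between the deletions by the direct test of limma (adjusted p under 0.05), and each is given as ΔE2 minus ΔSE12313-b on the log2(FPKM + 0.1) scale. VAT1L differed by -1.74 (adjusted p = 0.0053, limma with Benjamini-Hochberg) and was lower in 3 of 3 ΔE2 clones than in all ΔSE12313-b clones. CMIP differed by 0.61 (adjusted p = 0.0014, same test) and was higher in 3 of 3 ΔE2 clones. WDR59 differed by 0.38 (adjusted p = 0.037, same test) and CDYL2 by 0.31 (adjusted p = 0.044, same test), each higher in 3 of 3 ΔE2 clones. With the replicate block the adjusted p (limma, Benjamini-Hochberg) of WDR59 was 0.071 and that of CDYL2 0.068, and without the trend 0.055 and 0.061. When 1 library was left out, WDR59 and CDYL2 were past the threshold only without ΔE2 replicate 1 (adjusted p of 0.017 and 0.02, limma with Benjamini-Hochberg) and lay between 0.056 and 0.123 without any other library, whereas VAT1L and CMIP stayed past it each time. The cause of these differences was not tested.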

How the results depend on the processing

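With 2 control libraries and low values of ADAMTS18, NPIPB15 and PKD1L2, pseudocount, minimum and scaling moved several values, and the cause was not tested unless named. The call of ADAMTS18 ended at a pseudocount of 1 (-0.66 in ΔE2 and -0.60 in ΔSE12313-b, under 2-fold), and ADAMTS18 was under the minimum and not tested at a mean FPKM of at least 1 or without either control library, unless the tested genes were held fixed; over the fits that left out 1 library and tested it, it ranged from -2.12 to -1.82 and from -1.86 to -1.56. The number of genes called in ΔE2 was 5, and 3 at a pseudocount of 1 or a mean FPKM of at least 1, 13 at 1.5-fold and 2 in the window of 2.5 Mb (which holds fewer genes), with 3 to 6 when a library was left out (3 without control replicate 2). In ΔSE12313-b it was 3, and 1 at a pseudocount of 1, at a mean FPKM of at least 1 or in the narrow window, 7 with centred libraries or by voom and 10 at 1.5-fold, with 1 to 4 when a library was left out (1 without control replicate 1). Between the deletions it was 1, and 2 with all genes above 0 or at 1.5-fold, with 1 in each fit that left out a library.

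The median of the 31 genes in ΔE2 (-0.13) was -0.071 at a mean FPKM of at least 1, -0.29 with centred libraries, -0.31 by voom and -0.20 in the narrow window, and -0.14 to -0.075 when a library was left out. In ΔSE12313-b (-0.17) it was -0.46 with centred libraries, -0.46 by voom, -0.25 with the longest transcript and -0.31 in the narrow window, and -0.25 to -0.16 when a library was left out. Each median thus kept its sign in these settings.

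With the replicate block, 5, 3 and 1 genes were called as without it; the labels do not pair the samples. Under the block MON1B (-0.0057), PKD1L2 (0.49) and ADAT1 (0.011) changed sign in ΔE2, NPIPB15 in ΔSE12313-b went under 2-fold (-0.96) and PKD1L2 in ΔSE12313-b passed the threshold (1.59, adjusted p = 0.037, limma with Benjamini-Hochberg). PKD1L2 entered the test through 2 libraries of ΔSE12313-b alone, the group where it is high, so nothing is read from that value. It rests on 18, 19 and 5 reads in ΔSE12313-b and 6 and 2 in the controls.

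Other changes of sign were found with centred libraries and by voom. In ΔE2 MON1B had -0.14 and -0.15, in that order of settings. In ΔSE12313-b NUDT7 had -0.18 and -0.18, CMIP -0.15 and -0.14, and ATMIN -0.0498 and -0.046. Between the deletions NPIPB15 had 0.046 and 0.022, BCAR1 0.041 and 0.031, and GLG1 0.085 and 0.074. PKD1L2 in ΔE2 had 0.012 at a pseudocount of 1. When a library was left out, these values crossed 0. In ΔE2 MON1B ranged from -0.037 to 0.066, PKD1L2 from -0.50 to 0.48 and ADAT1 from -0.0495 to 0.019. In ΔSE12313-b NUDT7 ranged from -0.056 to 0.26. Between the deletions the ranges were -0.12 to 0.28 for SYCE1L, -0.26 to 0.045 for NPIPB15, -0.24 to 0.055 for BCAR1, -0.14 to 0.0196 for GLG1, -0.016 to 0.15 for GABARAPL2, -0.089 to 0.0803 for TMEM231, -0.0495 to 0.19 for GCSH, -0.035 to 0.11 for TMEM170A, -0.086 to 0.32 for CFDP1 and -0.0072 to 0.18 for C16orf46. Apart from fits without a library, 826 values of single genes kept their direction and their call (adjusted p and 2-fold together), 14 were called newly, 7 lost the call and 18 changed sign. Of the 826, 64 crossed the adjusted p of 0.05 alone, 47 to below it and 17 to above it.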

Other observations

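Non-coding genes of the same window were read in the same fits. Of 17 listed, 4 were tested, among them MIR4720 and MIR6504 with at most 3 reads in any library, from which no change can be read. LINC02170, a long non-coding RNA gene 3326 kb to the telomere side, was covered by 11 and 10 reads in the controls, by 23, 16 and 25 without E2 and by 0 in every library without SE12313-b. The ΔSE12313-b clones lay below all other libraries and the ΔE2 clones above the controls. LINC02170 reached an FPKM of 0.5 in 2 libraries of ΔE2 alone (0.543 and 0.829), so its place among the tested genes depends on the group where it is high, and it was singled out after its values had been seen. Its log2 fold change in ΔE2 was 0.49 (adjusted p = 0.37, limma with Benjamini-Hochberg). LOC283922, a pseudogene next to NPIPB15, had log2 fold changes of 0.01 in ΔE2 and -0.03 in ΔSE12313-b with FPKM between 6.53 and 8.47 in all libraries.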
